A study of Mus musculus with 12 samples.

Results

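Control striatum was compared between 9 and 13 weeks of age in 6 mice, 3 at each age, which are 6 of the 12 arrays of the series. They were chosen by their labels alone. Each array was hybridised with biotin-labelled total RNA from the striatum of a C57Bl/6 mouse. The other 6 arrays come from mutant mice, 3 at 9 and 3 at 13 weeks, named TIF-IAD1RCre, in which TIF-IA, a factor that RNA polymerase I needs to start ribosomal RNA synthesis, was deleted with a D1RCre transgene, a Cre driven by the dopamine D1 receptor gene. The labels call the other genotype only "control" and do not say which alleles or transgenes these mice carry, and they name no treatment. The labels give medium spiny neurons as the cell type, while the tissue is whole striatum, and the markers described below include those of glia. The series text speaks of 3 mice per time point and also of 5 arrays per condition, and 3 arrays per group were analysed here. Their number limits the precision.

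The striatum is the input nucleus of the basal ganglia, and most of its neurons are GABAergic medium spiny projection neurons. They fall into a class that carries the D1 dopamine receptor and makes substance P and dynorphin, and a class that carries the D2 receptor and makes enkephalin. Between adolescence and adulthood the mouse striatum is known for late synaptic and myelin maturation, while its neurons no longer divide. In these mice, 9 to 13 weeks is a step within young adulthood.

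A library has to be described before the results, because mouse 3 at 13 weeks stood apart. Of 8256 genes tested, 283 (3.43%) lay at least 1 log2 unit above all 5 other control arrays in this mouse and 618 (7.49%) lay at least 1 below all of them, 901 in all. The same count came to 7, 7 and 22 genes for the 9-week mice and to 17 and 2 genes for mice 1 and 2 at 13 weeks. Its correlation with the other control arrays over all genes, which are not independent, was 0.936 to 0.944, against 0.981 to 0.991 among those 5. The median standard deviation (SD) of a gene was 0.142 among the 9-week controls and 0.330 among the 13-week controls. Between mice 1 and 2 alone it was 0.113 at 9 weeks and 0.127 at 13 weeks. When all probe sets of a gene were averaged, the count for this mouse was 475. The age differences that passed, and most list medians and counts, are therefore also given without this mouse.

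**Figure D1:**
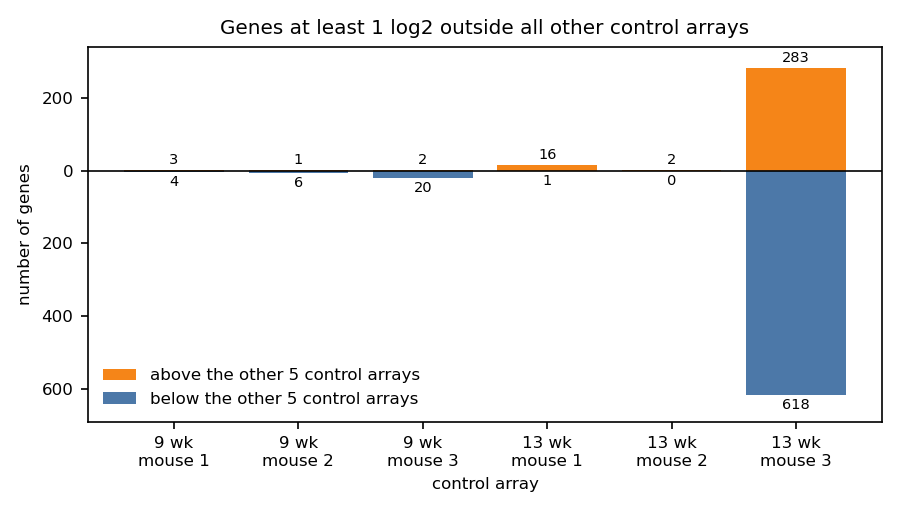
For each of the 6 control arrays (horizontal axis), the number of genes (vertical axis) that lie at least 1 log2 unit above (orange, upward) or below (blue, downward) all 5 other control arrays, with the count printed at each bar. Mouse 3 at 13 weeks has 283 above and 618 below, and the other arrays have at most 16 above and 20 below.

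The labels give no sex. Xist, the noncoding RNA of the inactive X chromosome, had log2 values of 2.63, 2.51 and 9.70 in the 9-week controls and of 2.56, 2.64 and 8.59 in the 13-week controls, and the Y-linked Eif2s3y was low in the same mice, so that mouse 3 was female at both ages. The array's own control probe sets for beta-actin differed with age. The value at the 3′ end minus that at the 5′ end of the transcript was 1.57, 1.32 and 1.96 at 9 weeks and 1.07, 1.11 and 0.82 at 13 weeks, with no overlap, whereas for Gapdh it was -0.01, -0.08 and 0 against -0.05, -0.05 and -0.06. For pyruvate carboxylase the same difference was 4.12, 3.88 and 4.30 at 9 weeks and 3.58, 3.94 and 4.57 at 13 weeks, with groups that overlap. A larger 3′ excess is commonly read as more degraded RNA or shorter copies of it. The part of this measure in the age differences below was not tested. The 3′ probe set for 18S ribosomal RNA read 8.29 and 8.85 in the mice numbered 3 and 4.43 to 5.52 in the other 4. Rrn3, which encodes TIF-IA, read 8.0, 7.97 and 8.2 at 9 weeks and 7.96, 7.54 and 8.04 at 13 weeks, with groups that overlap.

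The marker genes show a striatal profile. Ppp1r1b, which encodes the protein DARPP-32 of dopamine-responsive neurons, read 13.39, 13.32 and 13.34 at 9 weeks and 13.14, 13.07 and 14.15 at 13 weeks on the log2 scale of the array. Penk, the enkephalin precursor, read 14.02, 14.03 and 14.05 against 13.90, 13.74 and 13.71. Tac1, the substance P precursor, read 13.22, 12.99 and 13.07 against 13.23, 13.23 and 12.62. For Ppp1r1b and Tac1 mouse 3 is the highest and the lowest of the 13-week arrays, and 0 of these 3 genes passed the test for age. Gad1, which makes GABA, lay between 12.10 and 13.17 in the 6 arrays, and the interneuron peptides Sst and Npy lay between 11.22 and 12.15. Markers of glia were present too. Mbp, a myelin protein, lay between 14.53 and 14.78, the astrocyte water channel Aqp4 between 8.82 and 9.21, Gfap, an intermediate filament of astrocytes, between 6.96 and 7.50, and Csf1r, the growth factor receptor of microglia, between 10.28 and 10.95.

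Markers of neighbouring tissue varied. The threshold for a measurable level was the 40th percentile of all probe sets on an array, 3.506 to 3.81. Alas2, a haem synthesis enzyme of red cell precursors, was below it in all 6 arrays. Of the endothelial markers Pecam1 was below it too, while Cldn5, a tight junction protein, read 6.34 to 7.20, and 11 of 16 endothelial genes tested were over it in all 6. The same held for 10 of 12 thalamic and subcortical genes and 7 of 11 cortical genes tested, beside 7662 of all 8256 genes tested. Only genes over the threshold in at least 3 of the 12 arrays were tested. The endothelial, thalamic and cortical lists have 20, 17 and 17 genes on the array. Th, the dopamine synthesis enzyme of midbrain neurons, read 5.01 to 5.26. Neurod6, a transcription factor of cortical excitatory neurons, was over it only in mouse 1 at 13 weeks, at 4.17, with the other 5 arrays at 3.00 to 3.04. Slc17a6, the vesicular glutamate transporter of thalamic neurons, read 3.30, 3.10 and 3.09 at 9 weeks and 7.08, 4.44 and 3.87 at 13 weeks. Calb2, which encodes calretinin and is strong in midline thalamus, read 2.50, 2.53 and 2.83 against 8.0, 5.01 and 3.00, and Zic1, a transcription factor of septum and medial thalamus, read 7.33, 7.30 and 6.76 against 9.24, 7.08 and 6.56. The highest value of all 3 is in mouse 1 at 13 weeks, and Zic1 was chosen after its values were seen. Averaged over 12 thalamic and subcortical marker genes, this mouse had 7.39 and the other 5 had 6.32 to 6.63. By the log2 of the summed signal of these 12 genes it was not high, at 12.74. On that measure the 9-week mice had 12.99 to 13.10, and mice 2 and 3 at 13 weeks 12.66 and 12.64. Calb2 is also on the interneuron list. Calb2 and Slc17a6 had age differences of 2.72 and 1.97 with standard errors (SE) of 1.29 and 1.15 and did not pass the test (adjusted p = 0.301 and 0.391). Both were under the threshold in all 9-week controls. They entered the test through the 13-week controls, 2 arrays for Calb2 and 3 for Slc17a6, and 1 mutant at 9 weeks. Another Slc17a6 probe set was over the threshold in fewer than 3 arrays. In controls it read 2.64, 2.64 and 2.65 at 9 weeks and 7.27, 2.66 and 2.68 at 13 weeks. The part of neighbouring tissue in the age differences was not tested.

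**Figure D2:**
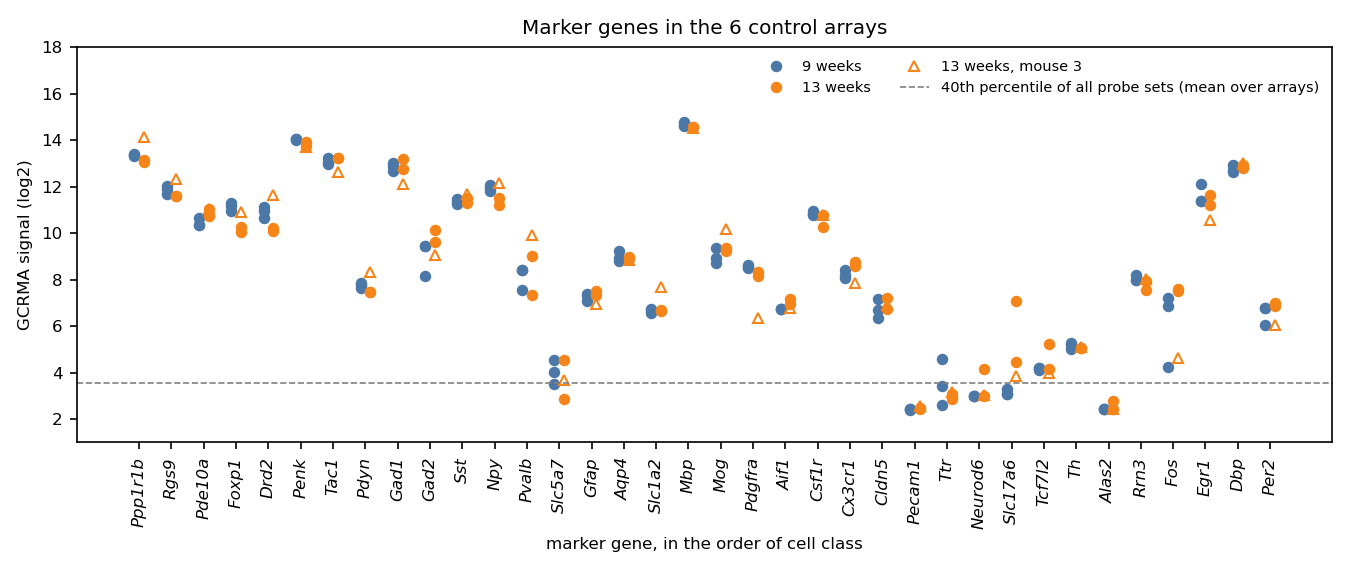
GCRMA signal (log2, vertical axis) of marker genes in the 6 control arrays, grouped along the horizontal axis by cell class, with 9 weeks in blue, 13 weeks in orange and mouse 3 at 13 weeks as an open triangle. The dashed line is the 40th percentile of all probe sets, averaged over the arrays, below which Pecam1 and Alas2 lie in all 6 arrays. Levels of different genes come from different probe sets and are not comparable.

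Between 9 and 13 weeks, most genes of the control striatum moved little: 6727 of 8256 genes (81.5%) differed by at most 0.5 log2 units. In the fit of all 12 arrays with limma, 12 genes (0.145%) passed an adjusted p under 0.05, 7 higher (0.0848%) and 5 lower (0.0606%) at 13 weeks. The rises included Pfn1 and Cap1, both actin-binding proteins, Kif5c, a kinesin motor of neurons, and Spr, the last enzyme of tetrahydrobiopterin synthesis, the cofactor of tyrosine hydroxylase. The falls included Lrrk2, the Parkinson's disease kinase that is abundant in medium spiny neurons, and Usp48, a deubiquitinase. In all 12 genes the 3 arrays of either age did not overlap, as held for 1930 genes tested (23.4%). The median difference over all genes was -0.083, and at an unadjusted p under 0.05, 406 genes were higher (4.92%) and 1025 lower (12.4%). Under quantile normalization these counts were 460 and 880, and the overall median difference was -0.064.

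These calls rested on the full set of arrays. The limma count was 0 when mouse 1, 2 or 3 at 9 weeks was left out, with 937, 1136 and 914 genes at an unadjusted p under 0.05. Among the 13-week controls it was 0 without mouse 1 (1915 unadjusted), 3 without mouse 2 and 25 without mouse 3. Leaving out a mutant array, which enters only through the estimate of the spread, gave 6, 0 and 20 calls for the 9-week mutants and 0, 0 and 7 for the 13-week mutants, with 1248, 1276 and 1258 genes at an unadjusted p under 0.05 in the 3 fits without a call. With the 6 control arrays fitted alone, 0 genes passed with limma and 950 had an unadjusted p under 0.05. In all of these fits the 12 genes kept their direction.

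Among the cytoskeletal genes, Pfn1, or profilin 1, which feeds actin monomers to growing filaments, read 7.03, 7.22 and 6.88 at 9 weeks and 8.72, 8.31 and 9.16 at 13 weeks. It rose 3.22-fold (1.69 ± 0.21 log2 units, SE, n = 3 per age, adjusted p = 0.0255). Cap1, or cyclase-associated protein 1, which recycles actin monomers, read 2.24, 2.43 and 2.97 at 9 weeks and 5.47, 4.55 and 6.53 at 13 weeks. It was under the 40th percentile in all 9-week controls and all 6 mutants, so it entered the test only through the 13-week controls and had to differ. Its rise of 2.97 ± 0.39 (adjusted p = 0.0255) starts where the scale is compressed. Another Cap1 probe set went the same way, from a mean of 2.73 to 5.01. Kif5c, a heavy chain of kinesin-1 that carries cargo along axons and dendrites, read 7.43, 7.60 and 7.56 against 9.26, 8.97 and 8.90 and rose 2.85-fold (1.51 ± 0.23, adjusted p = 0.0327). Its other probe set differed by 1.84. All 13-week mice were high for these genes, and without mouse 3 the differences were 1.47, 2.46 and 1.58, each past the test.

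Both RNA-processing genes were higher at 13 weeks. Tsen34, a subunit of the endonuclease that splices transfer RNA precursors, had the tightest groups of the rises, 7.88, 7.97 and 7.99 against 8.82, 8.87 and 8.91, and rose 1.89-fold (0.92 ± 0.12, adjusted p = 0.0255). Rbfox2, a regulator of alternative splicing in neurons, read 4.62, 5.20 and 5.15 against 6.95, 6.26 and 7.29 and rose by 1.84 ± 0.29 (adjusted p = 0.0327). The other probe sets of Rbfox2 over the filter differed by 0.13, 0.39 and 0.80, the last of them mainly in mouse 3, which read 7.16 against 4.99 and 4.51 in mice 1 and 2. Without mouse 3, Tsen34 still passed and Rbfox2 had an adjusted p of 0.0511 at a difference of 1.61.

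Spr, sepiapterin reductase, read 5.90, 5.89 and 5.94 at 9 weeks and 7.16, 7.23 and 7.81 at 13 weeks. It rose 2.81-fold (1.49 ± 0.21, adjusted p = 0.0321), and by 1.28 without mouse 3 (adjusted p = 0.0262). Otub1, a deubiquitinase that also blocks some ubiquitin-conjugating enzymes, read 6.48, 6.32 and 5.09 against 8.09, 7.79 and 8.82 and rose by 2.27 ± 0.34 (adjusted p = 0.0327). Both extremes of Otub1 are in the mice numbered 3, and its difference was 1.98 without mouse 3 at 13 weeks (adjusted p = 0.0453). Its other probe set differed by 1.40, with 9.14 in mouse 3 and 6.49 and 6.47 in mice 1 and 2 at 13 weeks.

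The 5 genes that fell lay over a wide range of levels. Lrrk2 read 10, 10.04 and 9.85 at 9 weeks and 9.14, 9.14 and 9.27 at 13 weeks and was 1.72-fold lower (-0.78 ± 0.13, adjusted p = 0.0452). Usp48 read 8.84, 8.62 and 8.68 against 7.83, 7.79 and 7.91 and was 1.83-fold lower (-0.87 ± 0.14, adjusted p = 0.0327), while another Usp48 probe set over the filter differed by -0.21. Plekha6, a pleckstrin-homology-domain protein, read 5.93, 5.74 and 5.93 against 4.91, 4.92 and 4.88 (-0.96 ± 0.14, adjusted p = 0.0327). In these 3 genes mouse 3 lay with the other 13-week mice, and without it the differences were -0.82, -0.90 and -0.95 (adjusted p = 0.0262 for each). Lrrk2 and Tmem268 did not pass under quantile normalization or median centring.

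Car15, a carbonic anhydrase, read 4.38, 4.25 and 4.35 against 3.28, 3.31 and 3.46 (-0.98 ± 0.15, adjusted p = 0.0327). It was over the 40th percentile only in the 3 controls and 1 mutant at 9 weeks, so it entered the test through the 9-week controls and had to differ. Without mouse 3 its difference was -1.03 (adjusted p = 0.0262). Tmem268, a transmembrane protein gene, read 6.65, 6.58 and 6.41 against 5.70, 5.51 and 5.25 (-1.06 ± 0.18, adjusted p = 0.0452), and without mouse 3 its adjusted p was 0.0511 at -0.94. For 6 of the 12 genes there were further probe sets that passed the filter, 8 in all, and the mean differences of these 8 had the same direction. In those of Rbfox2, Usp48 and Tmem268 the ages overlapped. That of Tmem268 read 3.82, 4.47 and 3.73 against 3.84, 3.84 and 3.71 (-0.21).

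**Figure D3:**
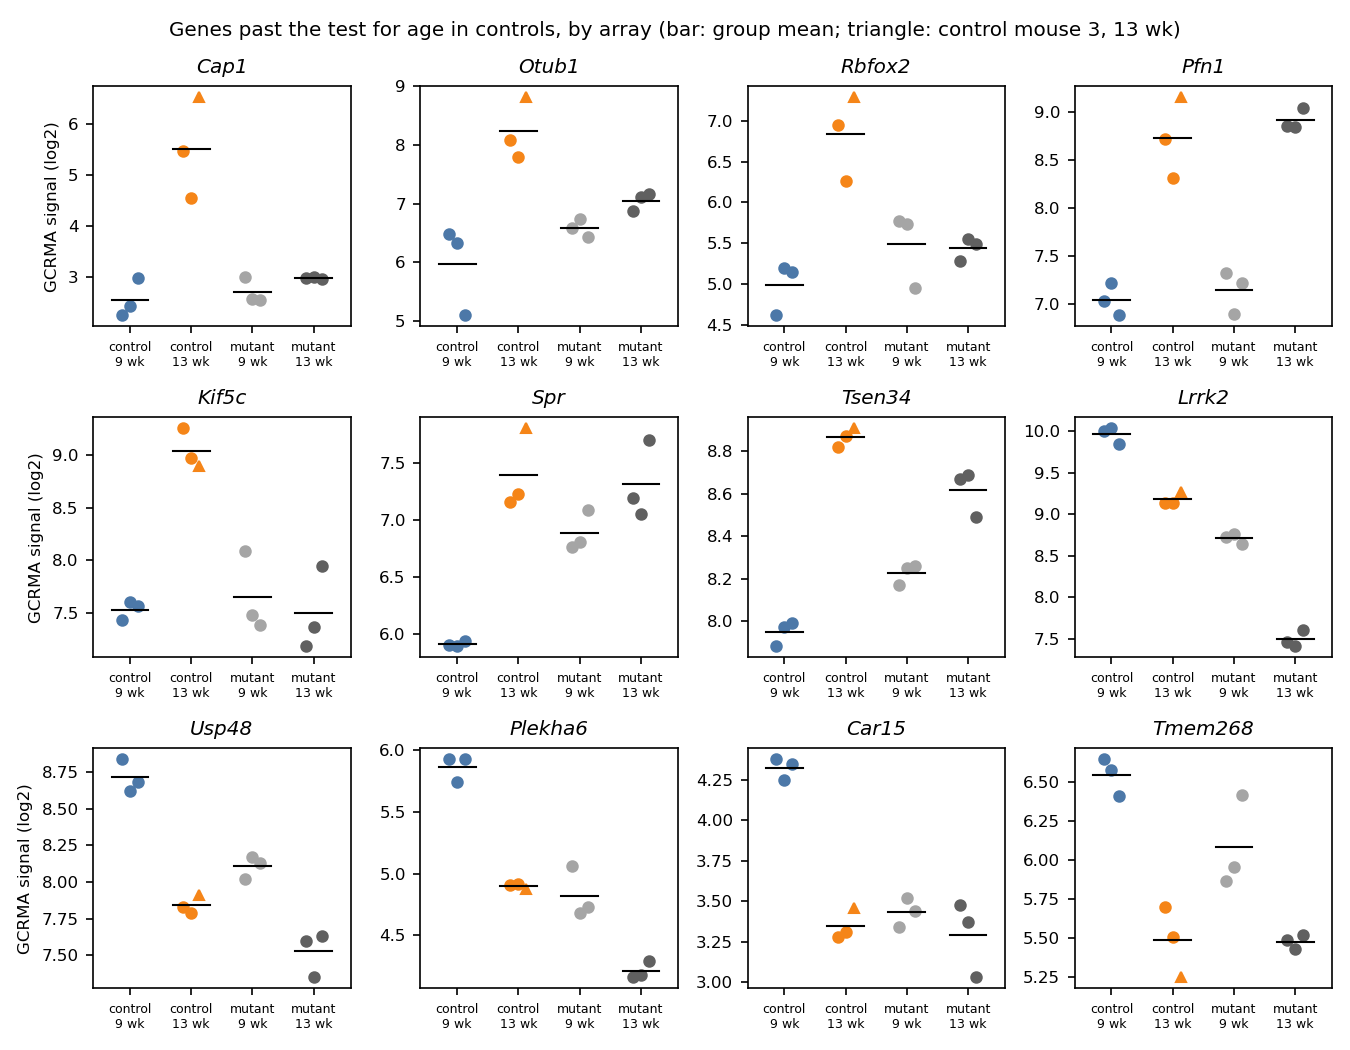
GCRMA signal (log2, vertical axes, scaled per gene) of the 12 genes past the test for age in controls, in the 3 arrays of each of the 4 groups. Points are single mice, black bars are group means and the triangle is control mouse 3 at 13 weeks. In each panel the blue 9-week and orange 13-week controls do not overlap.

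Without mouse 3 at 13 weeks, 25 genes passed (0.303%), 10 higher (0.121%) and 15 lower (0.182%). At an unadjusted p under 0.05, 1569 genes then differed (19%), 419 higher (5.08%) and 1150 lower (13.9%). Of the 12 genes above, 10 were among them, and 15 were added. Hrk, a BH3-only cell death activator of neurons, read 4.67, 4.71 and 4.62 at 9 weeks and 5.70 and 5.78 in mice 1 and 2 at 13 weeks, a rise of 1.07 (adjusted p = 0.0075), while mouse 3 read 4.65, at the 9-week level. Pfdn2, a prefoldin subunit that helps fold actin and tubulin, read 9.34, 9.53 and 9.23 against 10.48 and 10.64, with mouse 3 at 10.01, and rose by 1.19 (adjusted p = 0.0081). The added genes include some whose level in mouse 3 matched the younger group and some where it lay between. Passing only without mouse 3 is what chose these genes, which favours a value of mouse 3 unlike that of mice 1 and 2.

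Among the falls added, Ryr1, a calcium release channel of the endoplasmic reticulum that medium spiny neurons express, read 6.46, 5.62 and 6.35 against 4.18 and 4.66, with mouse 3 at 5.50. It fell by 1.72 without mouse 3 (adjusted p = 0.0453) and differed by -1.36 ± 0.33 with it (adjusted p = 0.116). Rap2b, a small GTPase, read 8.95, 8.65 and 8.70 against 7.86 and 7.51, with mouse 3 at 8.70 (-1.08, adjusted p = 0.0453). Adam11, a disintegrin-like protein of synapses, read 5.16, 4.80 and 5.02 against 4.06 and 4.15, with mouse 3 at 4.97 (-0.89, adjusted p = 0.0262). Syvn1, a ubiquitin ligase that clears misfolded proteins from the endoplasmic reticulum, differed by -1.11 (adjusted p = 0.0453). For Rap2b and Adam11 the values of mouse 3 lie within the 9-week range, which the choice of genes that pass only without it favours. Other Rap2b probe sets over the filter differed by 0.03, 0.43 and -0.27 with all arrays.

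Some of the widest gaps between the ages belonged to genes that did not pass. Reln, which encodes the secreted glycoprotein reelin, read 10.34, 10.23 and 10.51 at 9 weeks and 9.37, 9.32 and 7.82 at 13 weeks, a difference of -1.52 ± 0.39 (adjusted p = 0.122). Col6a1, a collagen VI chain, read 7.85, 7.40 and 7.53 against 6.53, 6.55 and 6.32 (-1.13 ± 0.26, adjusted p = 0.104). Hcn2, a pacemaker channel, read 4.82, 5.27 and 5.28 against 6.16, 6.26 and 6.94 (1.33 ± 0.23, adjusted p = 0.0612). The width of the gap is what chose these 3 genes, so that the ages could not overlap in them. Mouse 3 lay farthest out in all 3. Rfx5, a regulator of MHC class II genes, and the lipid enzyme gene Agpat1 were also among the 8 widest gaps each way, with differences of -1.02 and 1.73 that did not pass.

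Lists of genes with a shared role were described by their counts and medians, without a test. Of 903 listed genes tested, 0 passed the limma test over all genes, and 61 were higher and 72 lower at an unadjusted p under 0.05. Without mouse 3, 2 listed genes passed, Ryr1 and Hnrnpdl, an RNA-binding protein of the splicing machinery that read 13.06, 12.90 and 12.97 against 12.33 and 12.06, with mouse 3 at 11.56. The other 5 Hnrnpdl probe sets over the filter differed by -0.85 to 0.06 with all arrays. A list whose share of members at an unadjusted p under 0.05 lies near 4.92% higher or 12.4% lower is at the level of all genes.

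The medium spiny neuron genes had a median difference of -0.02 over 24 members tested, with 0 higher and 5 lower at an unadjusted p under 0.05. Without mouse 3 it was -0.25 with 0 higher and 3 lower, and the mean of mouse 3 over these genes was 11.10, against 10.70 and 10.83 in the other 13-week mice. Besides Ryr1, the 5 included Foxp1, a transcription factor of striatal projection neurons, with 11.17, 10.96 and 11.28 against 10.27, 10.04 and 10.91 (-0.73 ± 0.24, adjusted p = 0.192). Its other 5 probe sets over the filter differed by -0.69, -0.07, 0, 0.51 and 0.75, so that they do not give Foxp1 a common direction. Drd2, the D2 dopamine receptor, read 10.97, 10.63 and 11.12 at 9 weeks, 10.23 and 10.11 in mice 1 and 2 at 13 weeks and 11.63 in mouse 3. In such bulk tissue, fewer cells of a type and less RNA per cell cannot be told apart.

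Ion channels and synapses had medians that depended on mouse 3 in part. The sodium and calcium channel list had a median of -0.28 over 20 members, with 1 member higher and 5 lower at an unadjusted p under 0.05. Without mouse 3 the median was -0.41, with 1 higher and 6 lower. With all 6 control arrays, 9 members lay lower at 13 weeks in every array, beside 16.7% of all genes. Ryr3, the ryanodine receptor of brain, read 8.76, 8.56 and 8.81 against 7.86, 7.88 and 7.39 (-1.0 ± 0.27, adjusted p = 0.131). Scn3b, a sodium channel beta subunit, read 10.59, 10.73 and 11.00 against 10.13, 10.28 and 10.20 (-0.57 ± 0.14, adjusted p = 0.122), while its other probe set differed by 0.17. Hcn2 and Cacnb2, a calcium channel beta subunit, were the 2 members that lay higher at 13 weeks in every array, beside 6.67% of all genes. The postsynaptic scaffold list had a median of 0.33 over 19 members and of -0.02 without mouse 3. At an unadjusted p under 0.05, 2 of its members were higher and 3 lower, and 3 and 3 without mouse 3. Its largest fall was Nlgn2, with 9.94, 9.29 and 10.19 against 8.74, 8.79 and 9.67 (-0.74). Dlg4, or PSD-95, read 7.56, 7.76 and 7.17 against 8.80, 8.31 and 9.90 (1.51 ± 0.45, adjusted p = 0.154), and its other probe set differed by 2.67. The synaptic vesicle list had a median of -0.04 over 25 members (-0.125 without mouse 3), with 0 higher and 4 lower (3 lower without mouse 3), among them Syn1 with -0.63 ± 0.21 (adjusted p = 0.194).

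The cytosolic ribosomal protein genes stood on the higher side with and without mouse 3. Their median was 0.19 in both cases over 41 members, against -0.083 for all genes, with 10 higher and 0 lower at an unadjusted p under 0.05, and 13 and 0 without mouse 3. In 10 members every 13-week array was above every 9-week array, beside 551 of all genes (6.67%). Rps15 read 12.89, 12.98 and 13.04 against 13.41, 13.84 and 13.93 (0.76 ± 0.15, adjusted p = 0.0913), with 0.16 in its other probe set, and Rpl8 read 12.14, 12.39 and 12.24 against 12.64, 12.95 and 12.77 (0.53 ± 0.15, adjusted p = 0.145). Averaged over the 41 genes, the arrays read 12.04, 12.10 and 12.05 at 9 weeks and 12.15, 12.47 and 12.21 at 13 weeks. Ribosome biogenesis genes, which include the RNA polymerase I machinery, had a median of -0.02 over 40 members, with 2 higher and 2 lower, and 3 and 5 without mouse 3. Oxidative phosphorylation genes had a median of -0.10 over 71 members, with 3 higher and 9 lower, close to the shares of all genes, and 4 and 6 without mouse 3.

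Glial lists had small median differences. The mature oligodendrocyte and myelin list had a median of -0.04 over 24 members (-0.10 without mouse 3), with Mog, a myelin surface protein, at 9.35, 8.72 and 8.95 against 9.36, 9.23 and 10.17. The astrocyte list had a median of 0.07 over 23 members (0.16 without mouse 3). In it Aqp4 differed by -0.09 and Gfap by 0.02, while the other probe set of each differed by 0.70 and 0.52. The endothelial list had a median of 0.01 over 16 members (-0.05 without mouse 3). The microglia list had a median of 0.20 over 22 members, with 4 higher and 0 lower at an unadjusted p under 0.05, and of 0.16 with 2 higher and 0 lower without mouse 3. The 4 were C1qa and C1qb, subunits of the complement initiator C1q, the integrin Itgam and the lipid receptor Trem2. C1qb read 9.71, 9.67 and 9.43 against 10.08, 10.34 and 10.59 (0.73 ± 0.21, adjusted p = 0.142), with 0.76 and 0.19 in its other probe sets, whereas Csf1r differed by -0.24 and Aif1 by 0.23. The cell cycle list had a median of -0.34 over 21 members, 0 higher and 4 lower. Without mouse 3 it was -0.22 with 0 higher and 1 lower, and 14 of the 21 were over the 40th percentile in all 6 controls. Top2a, a topoisomerase of dividing cells, read 4.19, 5.06 and 4.75 against 3.46, 4.14 and 4.16 (-0.75 ± 0.33, adjusted p = 0.276).

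**Figure D4:**
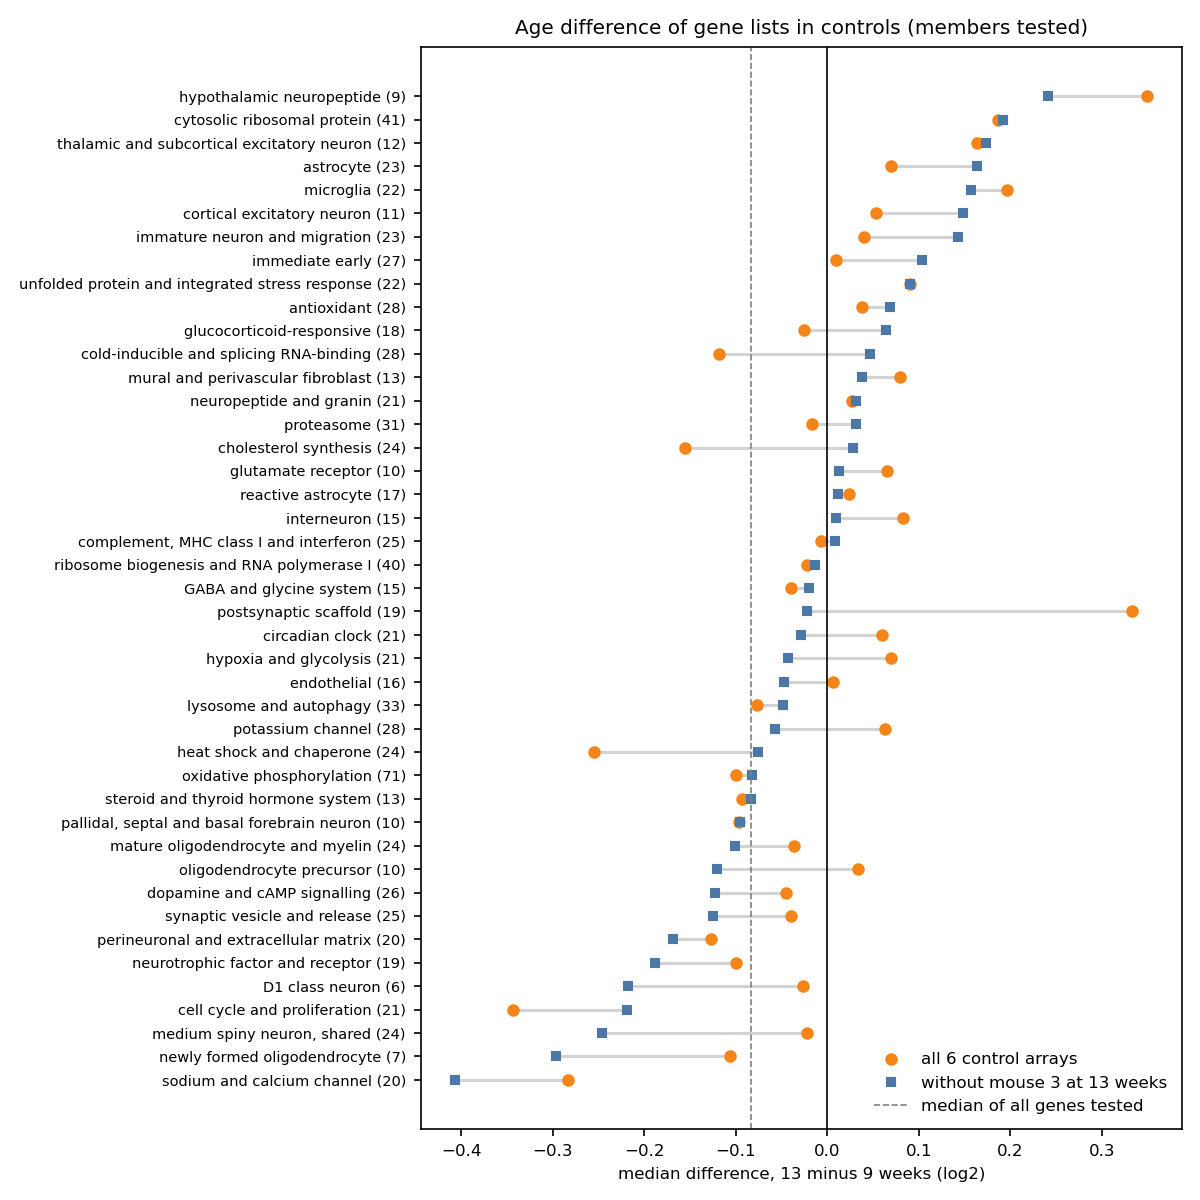
Median difference between 13 and 9 weeks (log2, horizontal axis) of the members tested in each gene list with 5 or more of them (number in brackets; sex-linked genes left out), with all 6 control arrays (orange) and without mouse 3 at 13 weeks (blue). The dashed line is the median of all genes, -0.083. The postsynaptic scaffold list moves from 0.33 to -0.02, and the cytosolic ribosomal protein list stays at 0.19.

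Fast-responding genes varied between mice of the same age. Fos, an immediate early transcription factor induced by neuronal activity, read 4.26, 6.88 and 7.22 at 9 weeks and 7.58, 7.49 and 4.65 at 13 weeks, so that mice of either age were low or high. Egr1, another such gene, lay between 10.55 and 12.12. The clock output gene Dbp lay between 12.62 and 13.02 in all 6 arrays and Per2 between 6.03 and 7.01. For these 4 genes the groups overlapped and 0 passed.

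The profile of mouse 3 at 13 weeks went in both directions. Among genes at least 1 log2 unit outside the other 5 controls, the median distance was 1.22 above and 1.33 below, and the largest distances were 2.46 and 4.33. Farthest below lay Qrsl1, a mitochondrial glutamyl-tRNA amidotransferase subunit, at 3.87 against 8.20 to 8.59 in the other 5 arrays. Aak1, a kinase of clathrin adaptors, read 2.86 against 6.25 to 6.95, Fbxw11, a ubiquitin ligase subunit, 8.50 against 11.18 to 12.05, and Cstb, the protease inhibitor cystatin B, 7.69 against 10.29 to 10.49. Farthest above lay Tcf3, a basic helix-loop-helix transcription factor, at 6.36 against 3.25 to 3.90. Ilrun, a regulator of innate immune signalling, read 11.23 against 7.94 to 8.87, and the lysosomal Cln6 6.28 against 3.76 to 3.93. Other probe sets of some of these genes over the filter were less extreme or differed. In mouse 3, another Qrsl1 probe set read 5.67 against 6.03 to 6.81, one of Cstb 8.63 against 9.16 to 9.71 and one of Tcf3 5.50 against 3.57 to 3.81. For Aak1 another read 6.04, within the range of 5.05 to 6.08, and for Fbxw11 another read 10.53, above 9.55 to 9.91.

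By role, the genes outside the other arrays in mouse 3 were counted list by list. The genes named in this paragraph were chosen after their values were seen. Of 19 postsynaptic scaffold genes, 6 lay at least 1 unit above the other 5 controls and 0 below, beside 3.43% and 7.49% of all genes. They were Dlg4, Dlgap4, Shank3, Camk2b, Nrgn and Icam5, and Nrgn, the calmodulin-binding neurogranin, read 13.45 against 11.33 to 11.91. Another Dlg4 probe set read 9.71 against 5.50 to 9.30, less than 1 unit above. Of 24 heat shock and chaperone genes, 0 lay above and 4 below, with Hspa1b at 3.15 against 5.44 to 5.58 and the endoplasmic reticulum chaperone Hspa5 at 9.94 against 11.79 to 12.15, while another Hspa5 probe set read 11.01, within 10.77 to 11.38. Of 22 unfolded protein and integrated stress response genes, 1 lay above and 4 below. Of 28 cold-inducible and splicing RNA-binding genes, 0 lay above and 4 below, including the nuclear noncoding RNA Malat1 at 9.07 against 10.17 to 11.63. Another Malat1 probe set read 7.39, below 8.66 to 10.63. Further ones read 4.16, 9.06 and 4.08, within 4.05 to 5.35, 8.76 to 10.17 and 4.01 to 4.92. Of 24 medium spiny neuron genes, 0 lay outside in either direction. Pdgfra, a receptor of oligodendrocyte precursors, read 6.35 against 8.14 to 8.64, and in another probe set 4.49, within 4.12 to 4.83. This mouse also had the lowest beta-actin 3′ excess of the controls, 0.82, but the highest for pyruvate carboxylase, 4.57. The part of RNA quality, sex or dissection in its profile was not tested.

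The mutants give the same age step in another genotype. In them 2700 genes (32.7%) passed the test for age, 1331 higher (16.1%) and 1369 lower (16.6%) at 13 weeks, while in controls it was 12. The difference between the age effects, tested as an interaction, passed for 1523 genes (18.4%), 996 with the mutant effect above that of controls (12.1%) and 527 below (6.38%), and without mouse 3 at 13 weeks for 1951. This test holds the same control arrays as the age difference in controls. By Xist, 1 mutant at 9 weeks and all 3 at 13 weeks were female, and with a term for sex the counts were 2512 and 1734. The 5 genes with the smallest p were over the 40th percentile only in the 13-week mutants, the group through which they entered the test, so that low and flat values in controls were a condition of their entry. Ifit1, an interferon-induced gene, read 2.12, 2.07 and 2.13 against 2.12, 2.13 and 2.16 in controls and 2.15, 2.19 and 2.12 against 9.34, 9.09 and 8.86 in mutants. The others were Usp18, Ccl12, Rhoj and Timp1. Gfap read 7.52, 8.0 and 8.98 against 13.00, 13.16 and 13.29 in mutants, and in controls its age difference was 0.02 ± 0.30.

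For the 12 genes, the age effect in mutants was mixed. Of these, 6 passed the test for age in mutants in the same direction, Pfn1, Tsen34, Lrrk2, Usp48, Plekha6 and Tmem268, and 0 in the opposite one. Pfn1 rose as much in mutants, from 7.32, 6.89 and 7.22 to 8.86, 8.85 and 9.04 (1.77 ± 0.21, against 1.69 in controls, interaction adjusted p = 0.868). Lrrk2 was lower in mutants at 9 weeks already, at 8.73, 8.76 and 8.64, and read 7.46, 7.41 and 7.61 at 13 weeks. Of the 5 falls, 4 had all 3 mutants below all 3 controls at 9 weeks, as did 1698 of all genes (20.6%), but a fall from high 9-week controls was what chose these genes. Plekha6 read 5.06, 4.68 and 4.73 in mutants at 9 weeks, near the 13-week controls at 4.91, 4.92 and 4.88.

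The other 6 genes, Cap1, Otub1, Rbfox2, Kif5c, Spr and Car15, passed the interaction test, and Cap1 and Car15 had entered it through a single control group. Kif5c read 8.09, 7.48 and 7.38 in mutants at 9 weeks and 7.18, 7.36 and 7.95 at 13 weeks, a difference of -0.15 ± 0.23, against 1.51 in controls (interaction adjusted p = 0.0043). Cap1 lay between 2.54 and 3.00 in all 6 mutants, at the 9-week level of controls. Car15 read 3.34, 3.52 and 3.44 in mutants at 9 weeks, at the level of the 13-week controls, so that the 9-week controls alone were high. Of the 7 rises, 5 had all 3 mutants below all 3 controls at 13 weeks, as did 2213 of all genes (26.8%), but a rise to high 13-week controls was what chose these genes.

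**Figure D5:**
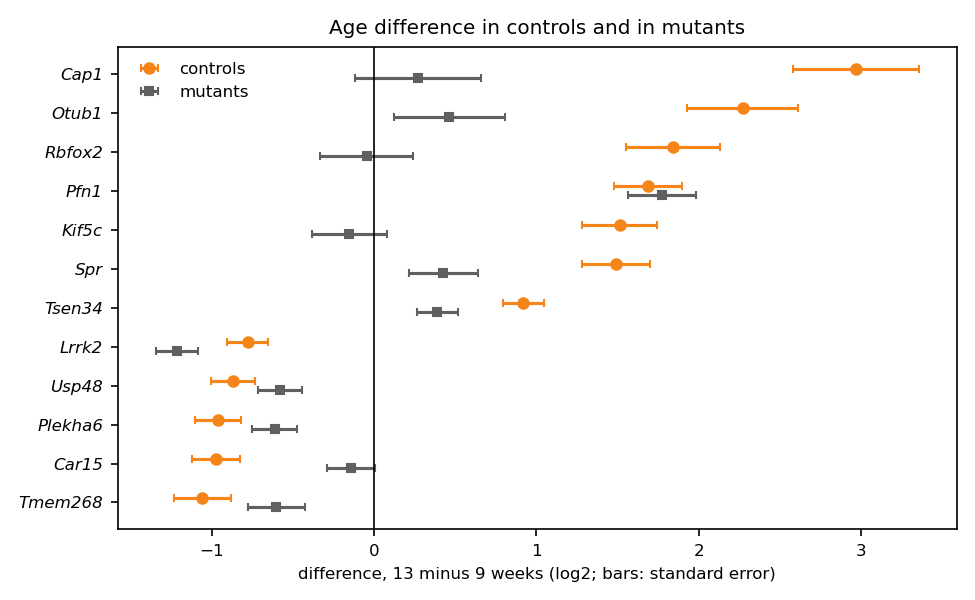
Age difference, 13 minus 9 weeks (log2, horizontal axis), of the 12 genes past the test in controls (vertical axis), in controls (orange) and mutants (grey), with limma standard errors as bars and 3 mice per group. Pfn1 has 1.69 in controls and 1.77 in mutants, while Cap1, Otub1, Rbfox2 and Kif5c lie far from their control values in mutants.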

How the data were processed

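Striatal total RNA was hybridised to 1 array per mouse. The authors deposited log2 values made with GCRMA, per the submitters' processing notes, and the version is not given in the sources used here. Of 22690 probe sets, 64 array controls were left out, and the 20380 that the platform annotation pairs with exactly 1 gene symbol were used. Each gene was read from its brightest probe set on average over all 12 arrays. Genes above the array's 40th percentile in at least 3 arrays were tested, 8256 of 12393. GCRMA compresses low values, so folds there depend on its background correction.

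All 12 arrays were fitted with limma 3.58.1 (R 4.3.3; lmFit, eBayes), with a coefficient per group and 8 residual degrees of freedom. P-values are two-sided and Benjamini-Hochberg adjusted over all genes tested (threshold 0.05). An effect is a difference of log2 means with limma's standard error. On simulated data for age in controls (8256 genes, 200 changed), 62% of changes of 1 log2 and 96% of 2 log2 were recovered, with 3.7% false calls. These rates describe the simulated data only. Whether they hold for the real control arrays, among which an array stood apart, was not tested. In the real data, calls for age in controls ranged from 0 to 25 with single arrays left out.

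Genes and lists (49, with 903 members tested) were chosen with earlier results of these data known. Named genes are those that passed, the 8 widest gaps between ages each way, a marker panel (38 of 41 on the array), up to 4 members per list by p, the 12 each way where mouse 3 at 13 weeks lay farthest outside, the 5 smallest interaction p and the 8 largest each way that passed without that mouse. Alternatives were other normalizations, filters, probe set rules, array weights, a trended and robust prior, terms for sex and replicate number, removal of X and Y genes, another threshold and arrays left out. Some genes are not analysed here.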

Additional observations from a re-analysis of the deposited data

Results flagged for a closer look

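The age effect differed between controls and mutants in 6 of the 12 genes that passed in controls, by the limma interaction test over all genes (mutant age difference minus control age difference). In 5 of them the controls rose and the mutants did not pass: Cap1 had an interaction of -2.70 (SE 0.55, adjusted p = 0.0052), Rbfox2 of -1.89 (adjusted p = 0.0076), Otub1 of -1.81 (adjusted p = 0.022), Kif5c of -1.67 (adjusted p = 0.0043) and Spr of -1.06 (adjusted p = 0.028). Car15 had an interaction of 0.84 (adjusted p = 0.016), with a fall in controls and a difference of -0.14 in mutants. The genes were taken for their change in controls, and the interaction uses the same control arrays, so the 2 tests are not independent. Cap1 was over the filter only in the 13-week controls and Car15 only in the 9-week controls and 1 mutant of that age, so that for these genes the filter fixed both the age difference and the interaction, and they support nothing.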

How the results depend on the processing

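With 3 mice per age, calls for age in controls moved with most settings while directions did not. From 12 genes as deposited, the count was 59 with no filter, 7 with a filter at the 60th percentile, 26 for every probe set on its own, 51 at an adjusted p under 0.10, 1926 with array weights, and 0 with the control arrays alone, also without mouse 3 at 13 weeks (1916 genes then had an unadjusted p under 0.05). The weights did not converge and gave mouse 3 at 13 weeks 0.0587 and mouse 2 of the 9-week mutants 23.7. Leaving out single arrays gave 0 to 25. Added after seeing the data, 4 genes passed without both female controls and 141 without control 3 at 13 weeks and mutant 3 at 9 weeks. Of these 4 and 141 genes, 2 and 12 were among the 12. Quantile normalization gave 11, 10 of them among the 12, and a sex term 13, with 11 of them. The mean of all probe sets of a gene gave 15, with 8 of the 12.

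The replicate numbers do not pair the mice by the labels. Same-numbered controls correlated at 0.094, 0.0998 and 0.0993 in their deviations from the group means, each best with its own number. With the replicate number as a block 3 genes passed, all among the 12.

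Age in mutants passed for 1900 to 3837 genes with single arrays left out and for 5753 with array weights, and median centring split its calls into 1137 higher and 2108 lower. The interaction gave 1071 to 1951, 4301 with array weights and 2325 without both arrays in doubt. Median centring gave 877 above and 766 below, against 996 and 527 as deposited. Genes outside the other arrays in mouse 3 numbered 475 when all probe sets of each gene were averaged and 901 to 1004 with single arrays left out. For Tshz1 the interaction was 0.31 with all arrays and -0.79 without mouse 3 (adjusted p = 0.045), and -0.79 to 0.87 with single arrays left out. The causes were not tested.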

Other observations

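Mouse 1 at 13 weeks had 16 genes at least 1 log2 unit above the other 5 controls and 1 below. Those above included Calb2, Slc17a6 and Zic1, which are described with the markers, the nociceptin precursor gene Pnoc (5.79 against 2.91 to 4.02) and Vip, a peptide of cortical interneurons and hypothalamus (4.83 against 3.15 to 3.19). They also included Camk2a, a kinase of excitatory neurons, by 1.02, and Serpina3n, a protease inhibitor of astrocytes, by 1.01. These genes were chosen after their values were seen.

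Antioxidant genes had a median age difference of 0.04 over 28 members, with 6 higher and 1 lower at an unadjusted p under 0.05 (4 and 0 without mouse 3 at 13 weeks) and 0 past the limma test over all genes. Gpx6, a glutathione peroxidase gene, read 5.17, 5.66 and 6.14 at 9 weeks and 6.28, 6.44 and 6.33 at 13 weeks (0.69 ± 0.20, adjusted p = 0.147). Cirbp, a cold-inducible RNA-binding protein gene, read 7.43, 7.12 and 6.87 against 8.34, 8.04 and 8.14 (1.03 ± 0.18, adjusted p = 0.0626), and the imprinted noncoding RNA Meg3 read 12.71, 12.08 and 12.42 against 11.12, 11.53 and 10.36 (-1.40 ± 0.28, adjusted p = 0.0913), with -1.21 to 0.65 in its other 4 probe sets. In these 3 genes the ages did not overlap, as held for 1930 genes tested (23.4%). Members of lists were named by p, which favours such gaps.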
